A study of Mus musculus with 4 samples.

Results

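The regulatory T cell gene set held 9 genes, chosen by gene symbol: Foxp3, Il2ra, Ikzf2, Icos, Tnfrsf18, Tnfrsf4, Tnfrsf9, Ccr8 and Il10. All 9 were found among the 31053 genes of the count tables, each under a single identifier. They were followed through the immune cells of mouse fibrosarcomas, per T cell subset and in the other cell types, in tumours labelled as lacking Raldh1 and Raldh3 and in their controls.

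Regulatory T cells are CD4+ T cells that restrain other lymphocytes and often collect in tumours. Foxp3, the X-linked transcription factor that defines the lineage, works with Ikzf2 (Helios), an Ikaros family factor. Il2ra encodes CD25, the chain that gives the interleukin-2 receptor its high affinity, and regulatory T cells depend on interleukin-2 made by other T cells. Icos, Tnfrsf18 (GITR), Tnfrsf4 (OX40) and Tnfrsf9 (4-1BB) encode costimulatory receptors that are also raised on activated effector T cells. Ccr8 encodes a chemokine receptor found on regulatory T cells of tumours, and Il10 an inhibitory cytokine that several T cell types and macrophages make. Raldh1 and Raldh3 (genes Aldh1a1 and Aldh1a3) oxidise retinal to retinoic acid, which can promote Foxp3 induction in T cells.

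The data were single-cell RNA counts of sorted live CD45+ cells, made with 10x 3′ version 3 chemistry. The first group was fibrosarcoma tumours with a double knockout of Raldh1 and Raldh3 (DKO), and the second was tumours with a Cas9 control. All tumours were untreated and were taken 11 days after implantation, and the mouse strain and the number of clones behind the tumour lines are not given in the sources used here. Each group had 2 libraries, each library pooled 2 tumours, and the labels put the knockout in the tumours and name no change in the host. The smallest exact permutation p that this design allows is 0.333, and every p-value measures the spread between pools of tumours, not between single tumours.

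The DKO libraries held 7201 and 5429 barcodes and the controls 9206 and 8668, with 57458026 to 80032966 unique molecular identifiers (UMIs) each. After filters on quality and doublets, 6177 and 4646 DKO cells and 7642 and 7416 control cells were kept. Pairs of libraries shared 20 to 38 barcodes (0.292% to 0.626% of the smaller library). The targeted genes could not be checked in the sorted cells: Aldh1a1 had at most 1 UMI in any library. Aldh1a3 had 10 and 23 UMIs in the DKO libraries, against 28 and 9 in the controls, and in the few tumour or fibroblast-like cells it had 0 and 0 UMIs in the DKO libraries, against 9 and 3 in the controls. A 3′ count need not fall after an edit elsewhere in a gene. T-like cells made up 30.3% and 29.3% of the cells kept in the DKO libraries, against 20.3% and 15.3% in the controls.

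On GRCm38 (GENCODE vM21) Foxp3 lies on the X chromosome at chrX:7573644-7595245, Il2ra at chr2:11642807-11693193 and Ccr8 at chr9:120092114-120094906, all on the plus strand. 3 members share chromosome 1, with Icos at chr1:60977927-61000320 and Il10 at chr1:131019845-131024974 on the plus strand and Ikzf2 at chr1:69531214-69687245 on the minus strand. The receptor genes Tnfrsf9 (chr4:150914562-150946102), Tnfrsf4 (chr4:156013843-156016612) and Tnfrsf18 (chr4:156026164-156028895) all lie on the plus strand of chromosome 4, and Tnfrsf4 and Tnfrsf18 are 9551 bases apart. Foxp3 overlaps 4 other annotated genes, among them Flicr on its own strand, so a read in the shared stretch could belong to either.

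RefSeq promoter windows (GRCm38.p6, 250 bases before to 50 after a start) were on hand for 6 of the 9 members. Those of Foxp3, which anchors the set, and of the neighbours Tnfrsf4 and Tnfrsf18, which lie close together on chromosome 4, are shown 5′ to 3′, all from the plus strand. Capitals mark 3 motifs on either strand: AGGTCA (the half-site of retinoic acid receptors), GGAAA (the NFAT core) and TGACTCA (AP-1).
Foxp3 promoter, chrX:7579426-7579725: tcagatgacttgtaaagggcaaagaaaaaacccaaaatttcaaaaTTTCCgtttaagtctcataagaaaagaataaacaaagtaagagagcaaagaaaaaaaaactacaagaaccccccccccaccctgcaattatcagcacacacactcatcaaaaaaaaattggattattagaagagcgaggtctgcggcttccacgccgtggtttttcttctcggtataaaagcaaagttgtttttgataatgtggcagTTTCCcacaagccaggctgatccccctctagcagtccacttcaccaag
Foxp3 promoter, chrX:7580233-7580532: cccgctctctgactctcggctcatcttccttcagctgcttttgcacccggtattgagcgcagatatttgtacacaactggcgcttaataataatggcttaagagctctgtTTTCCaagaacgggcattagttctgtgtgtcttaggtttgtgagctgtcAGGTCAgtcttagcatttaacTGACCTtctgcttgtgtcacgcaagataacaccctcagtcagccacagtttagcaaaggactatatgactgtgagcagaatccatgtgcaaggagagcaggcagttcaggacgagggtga
Tnfrsf4 promoter, chr4:156013445-156013744: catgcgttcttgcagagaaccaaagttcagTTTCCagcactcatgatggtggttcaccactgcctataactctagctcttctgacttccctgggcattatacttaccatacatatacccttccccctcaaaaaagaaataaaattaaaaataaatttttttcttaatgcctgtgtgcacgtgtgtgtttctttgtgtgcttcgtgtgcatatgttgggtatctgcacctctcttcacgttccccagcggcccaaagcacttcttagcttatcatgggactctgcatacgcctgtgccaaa
Tnfrsf18 promoter, chr4:156026072-156026371: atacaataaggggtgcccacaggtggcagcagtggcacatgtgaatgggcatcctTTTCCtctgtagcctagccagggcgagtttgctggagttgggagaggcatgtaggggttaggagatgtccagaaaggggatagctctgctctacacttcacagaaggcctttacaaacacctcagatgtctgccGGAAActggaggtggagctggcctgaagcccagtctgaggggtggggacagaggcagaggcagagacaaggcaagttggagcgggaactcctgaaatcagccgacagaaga
The second Foxp3 window held AGGTCA 2 times and GGAAA 1 time, and the first held GGAAA 2 times. Tnfrsf18 held GGAAA 2 times and Tnfrsf4 1 time, and none of these 4 windows held TGACTCA. Among all 32851 promoter windows, 16.3% held AGGTCA, 61.3% GGAAA and 5.20% TGACTCA, and no marked matches overlapped. A match describes these letters only.

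A regulatory T-like subset was found without the members. T-like cells were clustered on variable genes that left out all 9, and 1 of 14 clusters, with 516 cells, was named from the markers Ctla4, Ikzf4, Lrrc32, Gpr83, Tigit, Capg, Il1r2, Itgb8 and Izumo1r. Of these 9 markers 7 were detected in it, and among its leading genes were Itgae, Lrrc32, Iigp1, Klrg1, Itgb8 and Izumo1r. Of the 2157 Foxp3 UMIs in all cells kept, 83.9% fell in this cluster, and 7.70% fell in the cycling T-like cells. Other T-like clusters were named by the same kind of marker list: type 2 cytokine-like cells (Il13, Il5, Il4), conventional CD4 T-like, CD8 T-like, cycling, interferon, naive and Ly49 T-like cells, the last marked by Klra1, Klra6 and Klra7. A cluster of 143 T-like cells led by macrophage genes (C1qa, Lyz2, Apoe) was left unnamed, and it is part of every value over all T-like cells. A gamma-delta T-like cluster of 66 cells (10 and 26 in the DKO libraries, 16 and 14 in the controls) was under the minimum of 20 cells in 3 of 4 libraries, and neither cluster enters the orders of levels below.

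Levels are given as CPM, a gene's UMIs scaled to the same total for every population, and they describe clusters, with no test between them. Foxp3 in regulatory T-like cells had 765 and 861 CPM in DKO libraries 1 and 2, against 795 and 521 CPM in control libraries 1 and 2. The lowest of these, control 2, was still far above the next population in the order, the cycling T-like cells, at 33.0 ± 9.72 CPM (SD over 4 libraries). Every other named T subset lay under 10 CPM on average, and NK-like and monocyte/macrophage-like cells under 1 CPM.

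Ikzf2 in regulatory T-like cells had 2316 and 2204 CPM in the DKO libraries, against 2149 and 1658 CPM in the controls. The lowest was control 2. Ly49 T-like cells came second and averaged 772 ± 42.9 CPM (SD, n = 4) and held 37.6% of all Ikzf2 UMIs, against 30.2% in the smaller regulatory T-like subset. Interferon T-like cells followed at 437 ± 94.7 CPM and cycling cells at 295 ± 129 CPM, with overlapping libraries, and type 2 cytokine-like cells had 23.1 ± 15.0 CPM.

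Il2ra in regulatory T-like cells had 1642 and 1609 CPM in the DKO libraries, against 1315 and 1290.0 CPM in the controls. Here the groups did not overlap, as in 43.2% of all genes tested in these cells. Type 2 cytokine-like cells came next at 953 ± 572 CPM (SD, n = 4), and their highest library reached above the regulatory T-like range. Cycling T-like cells averaged 255 ± 56.4 CPM and conventional CD4 T-like cells 145 ± 26.2 CPM.

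The 4 costimulatory receptor genes were all highest in regulatory T-like cells. Icos had there 2516 and 2307 CPM in the DKO libraries, against 2216 and 1885 CPM in the controls. Conventional CD4 T-like cells (893 ± 223 CPM) and type 2 cytokine-like cells (881 ± 180.3 CPM) followed in the order, with overlapping libraries. The small gamma-delta cluster lay above both, with 1469 and 1084 CPM in the DKO libraries, against 1410 and 1456 CPM in the controls. Tnfrsf4 had in regulatory T-like cells 2589 and 2237 CPM in the DKO libraries, against 2649 and 2501 CPM in the controls. In Ly49 T-like cells it averaged 4.26 ± 1.37 CPM. Tnfrsf18 had in regulatory T-like cells 1385 and 1291 CPM in the DKO libraries, against 1351 and 1590.0 CPM in the controls. For both of these genes the groups overlapped.

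Tnfrsf18 and Tnfrsf4 had the same populations next to the regulatory T-like cells, with type 2 cytokine-like cells second (745 ± 126 and 1116 ± 196 CPM) followed by conventional CD4 T-like cells (618 ± 98.5 and 846 ± 173 CPM), and those neighbours overlapped. Tnfrsf9 had in regulatory T-like cells 1463 and 1561 CPM in the DKO libraries, against 1474 and 1497 CPM in the controls. It was also found outside T cells: NK-like cells averaged 392 ± 96.9 CPM, next to CD8 T-like cells at 442 ± 101 CPM, and monocyte/macrophage-like cells held 19.4% of all its UMIs.

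Ccr8 and Il10 had their highest mean in type 2 cytokine-like cells, with overlapping regulatory T-like libraries. The gamma-delta cluster, with 3 Ccr8 UMIs, is left out of this. Ccr8 had 185 UMIs in the whole data set, and in regulatory T-like cells 9.88 and 14.9 CPM in the DKO libraries, against 16.6 and 8.18 CPM in the controls, from 3 to 13 UMIs a library. Type 2 cytokine-like (14.3 ± 8.28 CPM), conventional CD4 (12.4 ± 3.30 CPM) and regulatory T-like cells (12.4 ± 4.00 CPM) overlapped. Il10 in regulatory T-like cells had 607 and 531 CPM in the DKO libraries, against 404 and 275 CPM in the controls, and in type 2 cytokine-like cells 899 and 1279 CPM in the DKO libraries, against 386 and 102 CPM in the controls. Type 2 cytokine-like cells held 43.5% of all Il10 UMIs and regulatory T-like cells 25.9%.

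**Figure D1:**
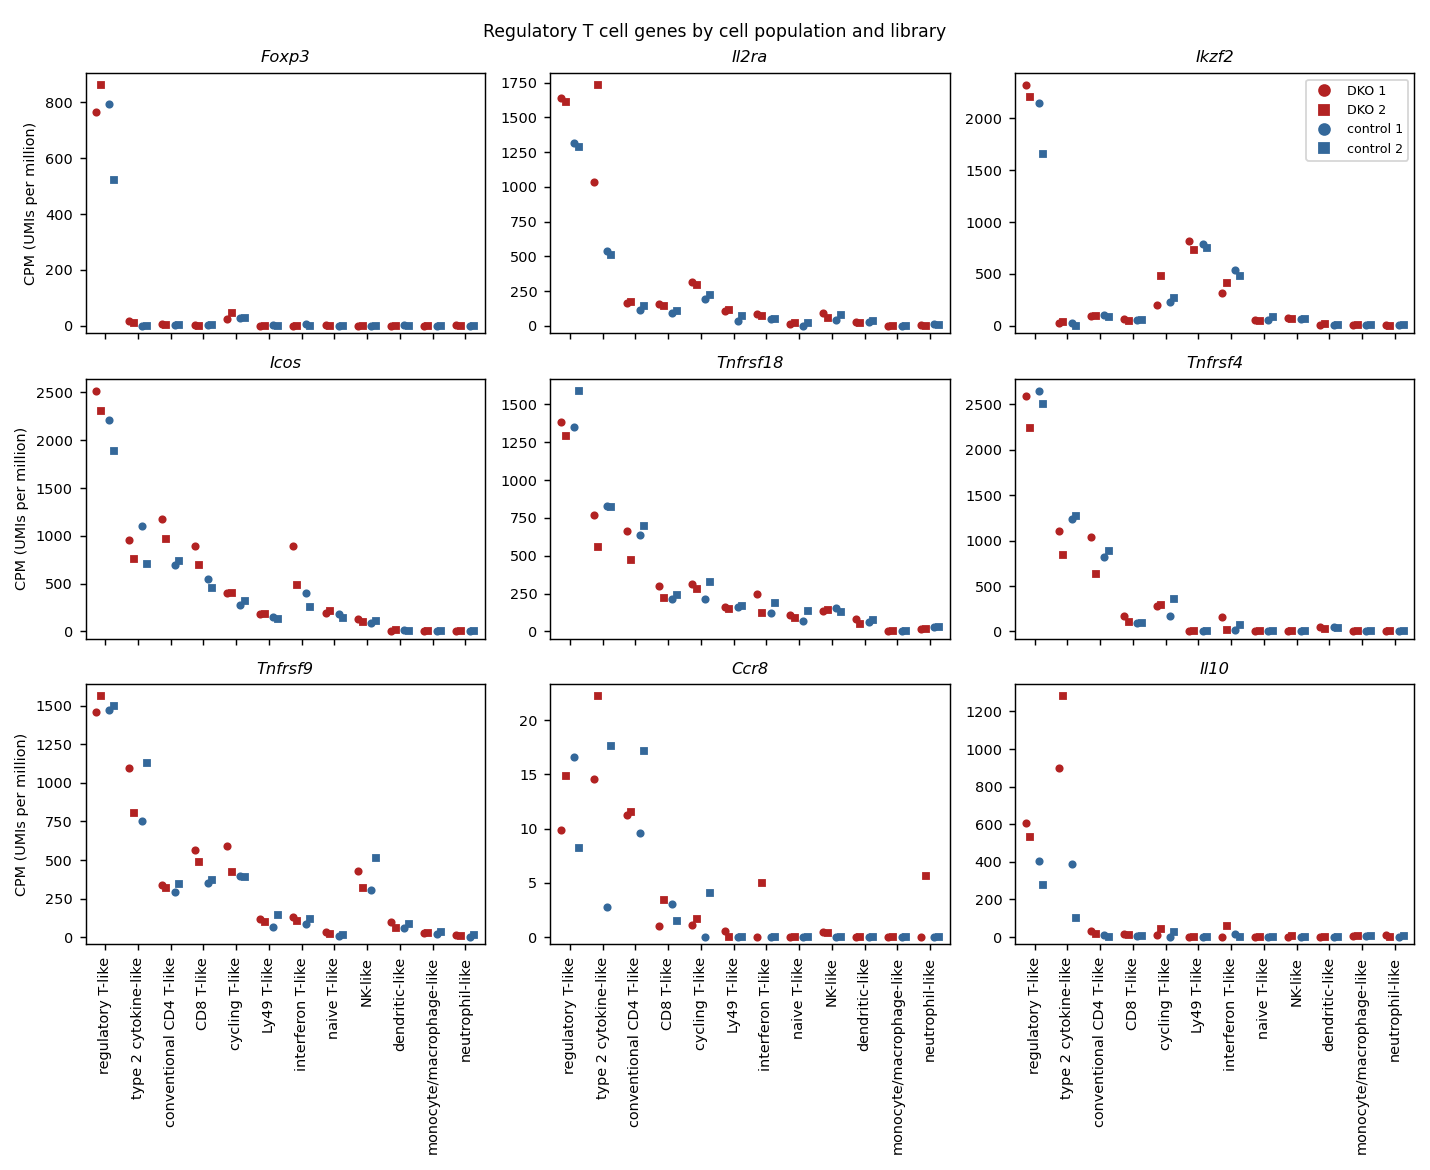
Level of each member (y axis, CPM on a linear scale that differs between panels) in 8 T subsets and 4 other cell types (x axis). Each point is 1 library, DKO in red and control in blue. Foxp3 is near 0 outside regulatory T-like cells, Ikzf2 has a second peak in Ly49 T-like cells, and Il10 is highest in the type 2 cytokine-like cells of the DKO libraries.

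The share of regulatory T-like cells among T-like cells overlapped between DKO and control tumours. It was 6.30% (118 of 1873 cells) and 11.8% (161 of 1363) in the DKO libraries, against 9.28% (144 of 1551) and 8.22% (93 of 1131) in the controls. Both controls lay between the DKO libraries. The log2 ratio of the share was 0.04 ± 0.40 (SE), with an adjusted p of 0.921 over the 10 T subsets (edgeR quasi-likelihood test, 2 libraries a group). Without DKO 2 the ratio was -0.48 and without control 2 it was -0.04, so its sign rested on single libraries.

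Counts of cells by Foxp3 itself also overlapped. Cells with a Foxp3 UMI were 6.94% (95% exact binomial interval 5.83 to 8.19%) and 12.0% (10.3 to 13.8%) of T-like cells in the DKO libraries, against 9.22% (7.83 to 10.8%) and 7.60% (6.13 to 9.31%) in the controls, intervals that cover counting error only. The difference of the means was 1.04 percentage points with an exact permutation p of 1.0, two-sided, and it was -1.47 without DKO 2. Monocyte/macrophage-like cells, which should lack Foxp3, had a UMI in 0.317% and 1.13% of DKO cells, against 0.440% and 0.222% of control cells, at median depths of 8869.5 to 12587 UMIs, against 4795 to 6226 UMIs for T-like cells. Thinned to 2000 UMIs a cell, the T-like shares were 5.11% and 10.0% in the DKO libraries, against 7.13% and 5.26% in the controls, and the monocyte/macrophage-like shares were 0.164% and 0.187% in the DKO libraries, against 0.0456% and 0.0416% in the controls.

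Of all cells kept, Foxp3-positive T-like cells were 2.10% and 3.51% in the DKO libraries, against 1.87% and 1.16% in the controls. Here the groups did not overlap (exact permutation p = 0.333, the smallest this design allows), and the T-like share as a whole was also higher in the DKO libraries. Within the regulatory T-like subset, 90.7% and 89.4% of DKO cells had a Foxp3 UMI, against 88.2% and 77.4% of control cells, with median depths of 3948 and 4915 UMIs in the DKO libraries, against 3713.5 and 3586 UMIs in the controls.

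**Figure D2:**
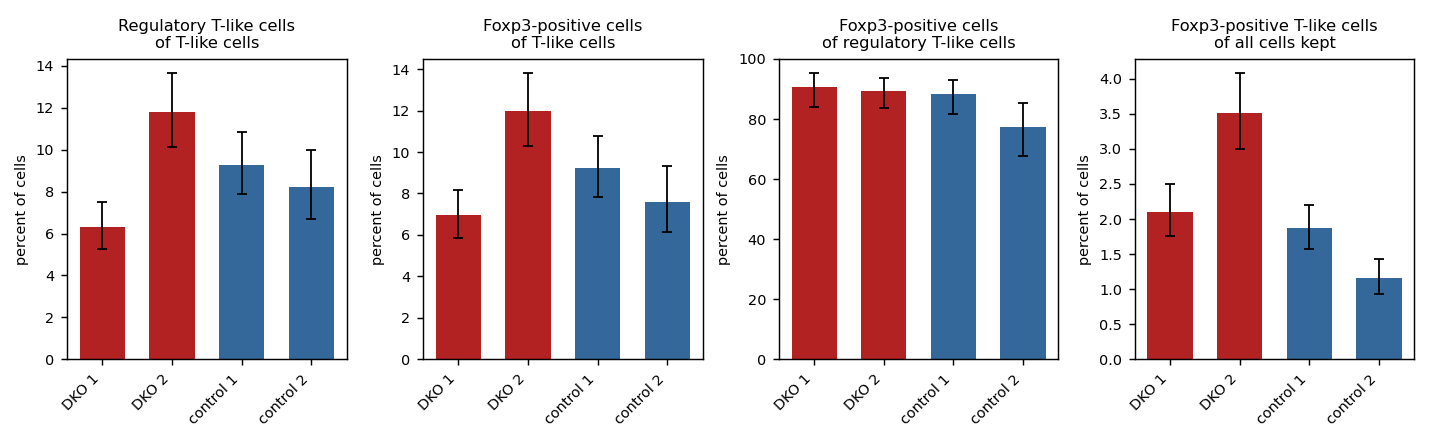
Share of cells (y axis, percent, from 0) in each library (x axis, DKO red, control blue), for the regulatory T-like subset and for Foxp3-positive cells under 3 denominators. Bars are single libraries and whiskers are 95% exact binomial intervals; among T-like cells both controls lie between DKO 1 and DKO 2.

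A comparison inside each library asked which members go with Foxp3 in single CD4+ T cells. Cells of every T-like cluster could enter it, type 2 cytokine-like cells among them. T-like cells with a Cd4 UMI and none of Cd8a or Cd8b1 were split by the presence of a Foxp3 UMI, into 304 Foxp3-positive and 1448 Foxp3-negative cells, summed per library, and tested with the library as a block. Of the 8 other members, 6 were higher in Foxp3-positive cells, where 980 of 7989 genes (12.3%) were called higher and 24.1% were called in either direction. The 2 not called were Il10 and Ccr8. Median depths were 4799 and 5479 UMIs in DKO and 4226 and 4168 in control Foxp3-positive cells, against 5152 and 6327 in DKO and 4654 and 5060.5 in control Foxp3-negative cells. The median log2 difference of the 8 was 1.40, and that of all genes tested was -0.02.

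Ikzf2 differed most of the 8 members compared, with 1726, 1868, 1769.6 and 1507 CPM in Foxp3-positive cells of DKO 1, DKO 2, control 1 and control 2, against 87.6, 105, 97.8 and 92.5 CPM in their Foxp3-negative cells. Its log2 difference was 4.06 ± 0.08 (SE, adjusted p = 3.91e-25), and no library overlapped. Il2ra had 1499.8, 1533, 1285 and 1301 CPM in Foxp3-positive cells of DKO 1, DKO 2, control 1 and control 2, against 313, 603, 212 and 219 CPM in their Foxp3-negative cells. DKO 2 stood highest among the Foxp3-negative values. Its Foxp3-negative cells held 1660 Il2ra UMIs, against 1051 in all conventional CD4 T-like cells of the 4 libraries. The log2 difference of Il2ra was 2.03 ± 0.28 (adjusted p = 0.0173), and the call was lost without DKO 1 (2.00, adjusted p = 0.0871), control 1 (1.89, 0.051) or control 2 (1.93, 0.064).

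All 4 costimulatory receptor genes were higher in Foxp3-positive cells, in 4 of 4 libraries each. Tnfrsf9 had 1590.2, 1479.7, 1354 and 1427 CPM in Foxp3-positive cells of DKO 1, DKO 2, control 1 and control 2, against 473, 469, 423 and 485 CPM in their Foxp3-negative cells, a log2 difference of 1.55 ± 0.07 (adjusted p = 1.36e-16). Tnfrsf4 differed by 1.25 ± 0.07 on the log2 scale (adjusted p = 1.76e-14), Icos by 1.19 ± 0.07 (adjusted p = 1.31e-14) and Tnfrsf18 by 1.05 ± 0.08 (adjusted p = 8.65e-12). They were also detected in Foxp3-negative cells: after thinning to 2000 UMIs, 80.0% to 92.9% of Foxp3-positive cells had a Tnfrsf18 UMI, against 57.0% to 69.6% of Foxp3-negative cells.

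Il10 had 535, 517, 396 and 410.5 CPM in Foxp3-positive cells of DKO 1, DKO 2, control 1 and control 2, against 172, 372, 84.6 and 33.3 CPM in their Foxp3-negative cells. It was higher in Foxp3-positive cells of all 4 libraries, but DKO 2 had a high Foxp3-negative value, and the log2 difference of 1.54 ± 0.57 did not pass (adjusted p = 0.182). Thinned to 2000 UMIs it passed, at 1.49 (adjusted p = 1.53e-11), as it did by DESeq2. The Foxp3-negative cells of DKO 2 held 1024 Il10 UMIs. Over the 4 libraries, conventional CD4 T-like cells held 135 and type 2 cytokine-like cells 1871. The part of the mix of T subsets in these values was not tested. Ccr8 had 5.02, 18.3, 17.2 and 9.33 CPM in Foxp3-positive cells of DKO 1, DKO 2, control 1 and control 2, against 11.5, 14.5, 6.60 and 15.4 CPM in their Foxp3-negative cells, a log2 difference of 0.05 ± 0.38 (adjusted p = 0.947), higher in 2 libraries and lower in 2. Counted per cell after thinning, Foxp3-positive cells had a UMI of 5.86, 5.63, 5.54 and 5.13 of the 8 other members on average in DKO 1, DKO 2, control 1 and control 2, against 3.12, 2.85, 2.88 and 2.91 in Foxp3-negative cells.

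**Figure D3:**
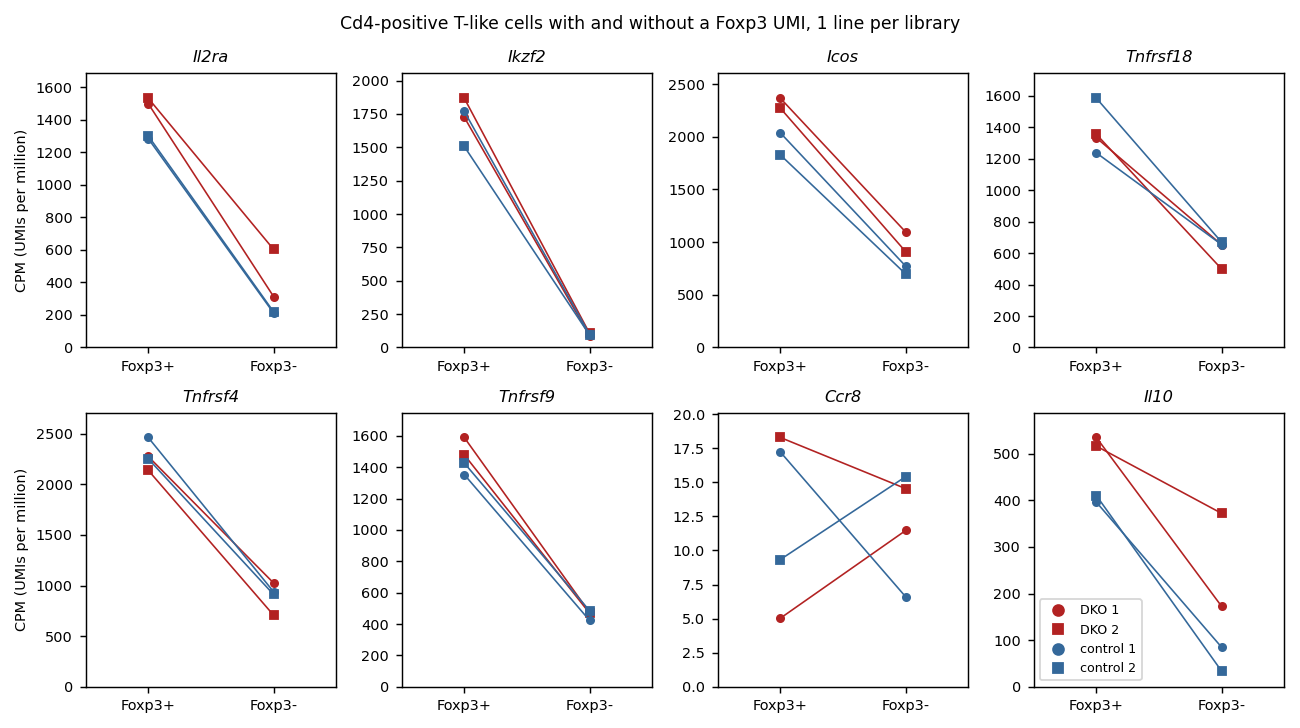
Level of 8 members (y axis, CPM from 0) in Cd4-positive T-like cells with (left) and without (right) a Foxp3 UMI. Each line joins the 2 gates of 1 library, DKO red and control blue. Lines fall from left to right for every member except Ccr8, and the Foxp3-negative cells of DKO 2 hold the highest Il2ra and Il10 of their gate.

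Of 22 other regulatory T cell genes tested in the same way, from a list of 23, 13 were higher and 2 lower in Foxp3-positive cells, with a median log2 difference of 0.84. Of all 7989 genes tested, 24.1% were called in either direction and 12.3% were called higher. Those furthest up were Lrrc32 (GARP, which tethers latent TGF-beta) at 5.47, Itgb8 (an integrin chain that frees it) at 4.32 and Klrg1 (an inhibitory receptor of mature effector cells) at 3.73. Ctla4, the inhibitory receptor for CD80 and CD86, was higher by 1.33, Ikzf4 (Eos) by 2.18 and Entpd1 (CD39) by 1.18. The other 7 were Izumo1r (2.23), Socs2 (1.43), Tigit (1.33), Prdm1 (1.27), Capg (0.96), Ebi3 (0.72) and Il2rb (0.51). Of these calls Tigit alone was lost in some of the fits with 1 library left out, passing in 2 of 4. The 2 that went the other way were Nrp1 (-1.71, adjusted p = 0.00832) and the decoy interleukin-1 receptor Il1r2 (-1.50, adjusted p = 2.02e-09). Lrrc32, Itgb8, Ctla4, Ikzf4, Izumo1r, Tigit, Capg and Il1r2 are also among the markers that named the regulatory T-like subset.

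Of 7 retinoic acid linked genes tested, from a list of 8, 4 were higher in Foxp3-positive cells and 1 was lower, where 24.1% of all genes were called in either direction. The retinoic acid receptor genes Rara (1.52) and Rarg (0.91), the gut-homing integrin chain Itgb7 (1.53) and the TGF-beta receptor Tgfbr1 (1.33) were higher, and Tgfbr2 (-0.80) was lower, and of these Rarg passed in 3 of 4 fits with 1 library left out and the rest in 4 of 4. Rara had 106, 94.5, 88.6 and 112 CPM in Foxp3-positive cells of DKO 1, DKO 2, control 1 and control 2, against 33.3, 41.8, 24.0 and 23.4 CPM in their Foxp3-negative cells. Rarg had only 12, 31, 9 and 5 UMIs in the same Foxp3-positive cells, and Tgfbr1 12, 32, 28 and 8. Of 8 ligand and partner receptor genes tested, Ccr4 (1.37) and Il10rb (0.85) were higher, and Ccl1 (-4.94), which encodes a ligand of CCR8, Icosl (-2.12), Tgfb1 (-0.57) and Il10ra (-0.57) were lower. The share of 24.1% over all genes applies here too.

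Over the 14 T clusters and 9872 genes, those whose log2 CPM followed Foxp3 most closely were Itgb8 (Pearson r = 0.96), Nid2 (0.93), Bmp2k (0.92), Nckap5 (0.90) and Lrrc32 (0.90). The members ranked lower, from Tnfrsf18 (0.77, rank 61) and Tnfrsf4 (0.72, rank 128) to Ikzf2 (0.53, rank 733) and Ccr8 (0.33). The clusters share libraries and were cut from the same cells, so these values are a description. The members were left out when the clusters were built and other genes could enter, so the ranks are not on equal terms.

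Within regulatory T-like cells no member passed the test between DKO and control tumours. Of the 8 tested, 0 were called (edgeR quasi-likelihood test, Benjamini-Hochberg adjusted over all 6385 genes), where 1 gene in all (0.0157%) was. At an unadjusted p under 0.05 there was 1 member, Il10, among 686 of the 6385 genes, and DESeq2 also called 0 members. The median log2 change of the 8 was 0.16, against -0.01 for all genes tested. Ccr8 had too few counts.

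Foxp3 in these cells differed by 0.22 ± 0.18 on the log2 scale (adjusted p = 0.702), and by -0.03 without control 2, the lowest library. Il2ra differed by 0.24 ± 0.14 (adjusted p = 0.567), Ikzf2 by 0.16 ± 0.15 and Icos by 0.15 ± 0.14. Tnfrsf9 (-0.06), Tnfrsf4 (-0.18) and Tnfrsf18 (-0.22) had values below 0, with adjusted p from 0.626 to 0.925. In 4 of the 8 (Il2ra, Ikzf2, Icos and Il10) both DKO libraries lay above both controls, which 26.8% of all genes tested also did (43.2% did not overlap in either direction).

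Il10 had the largest value of the members in these cells, a log2 change of 0.64 ± 0.18 (adjusted p = 0.289). It was 0.94 without control 1 and 0.43 without control 2. Cells with an Il10 UMI were 44.9% and 36.6% of regulatory T-like cells in the DKO libraries, against 28.5% and 29.0% in the controls. Thinned to 2000 UMIs these shares were 35.6% and 29.9% in the DKO libraries, against 26.4% and 27.7% in the controls. NK-like cells, with little Il10, had a UMI in 0.517% and 2.25% of DKO cells, against 0% and 0.531% of control cells, at median depths of 4143 to 5764.5 UMIs. The count of all genes called in regulatory T-like cells moved with single libraries, to 64 without control 1, 13 without control 2 and 53 without DKO 1.

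Over all T-like cells, 0 of 9 members were called, where 4 of 11317 genes (0.0353%) were. At an unadjusted p under 0.05 there were 2, Il2ra and Icos, among 1666 of the 11317 genes, and DESeq2 called 1 member, Il2ra. Il2ra had 274 and 431 CPM in the DKO libraries, against 192 and 208 CPM in the controls, a log2 change of 0.74 ± 0.19 (adjusted p = 0.213). Icos had 809 and 722 CPM in the DKO libraries, against 542 and 491 CPM in the controls, a change of 0.50 ± 0.13 (adjusted p = 0.213). In both genes the DKO libraries lay above the controls, as in 32.3% of all genes tested (49.0% did not overlap in either direction). The mix of T subsets also differed between libraries. CD8 T-like cells were 621 of 1873 and 213 of 1363 in DKO, against 290 of 1551 and 217 of 1131 in controls. Ly49 T-like cells were 325 and 330 in DKO, against 436 and 303 in controls. In a sum over T-like cells, a change of mix and a change within a subset cannot be told apart.

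Il10 over all T-like cells had 82.4 and 178 CPM in the DKO libraries, against 48.7 and 27.6 CPM in the controls. DKO 2 stood highest, and the log2 change was 1.68 ± 0.55 (adjusted p = 0.357). Foxp3 had 41.1 and 82.4 CPM in the DKO libraries, against 61.8 and 35.9 CPM in the controls, which overlapped, with a change of 0.25 ± 0.47 that was -0.30 without DKO 2 and -0.07 without control 2. Tnfrsf9 differed by 0.30 ± 0.14, and the other 4 members lay between -0.13 and 0.08. Leaving out single libraries moved the count of all genes called to 630 (DKO 1), 280 (DKO 2), 28 (control 1) and 2 (control 2). The log2 change was 1.00 for Il2ra without DKO 1 and 0.61 for Icos without DKO 2.

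Summed over all CD45+ cells, 8 of 9 members were higher in both DKO libraries than in both controls, as were 30.4% of all genes tested (46.8% did not overlap in either direction). Il10 differed by 1.87 ± 0.40, Il2ra by 1.38 ± 0.21 and Icos by 1.20 ± 0.15 on the log2 scale, and Foxp3, the 1 that overlapped, by 0.96 ± 0.48. By edgeR 0 of 9 members and 0 of 14427 genes (0.0%) passed, with 7 members and 1797 genes at an unadjusted p under 0.05. DESeq2 called 6 members and 408 genes. In such a sum, more T cells and more RNA of a gene per T cell cannot be told apart.

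Across all 14 cell populations compared, 3 of 89 member tests were called, all higher in DKO tumours, where 344 of 116218 gene tests (0.296%) were called. They were Icos in CD8 T-like cells and in interferon T-like cells, and Il2ra in type 2 cytokine-like cells. In the other 11 populations 0 of 69 member tests passed by edgeR. Besides those described above, these were 0 of 8 in conventional CD4 (0.451% of genes called), 0 of 8 in cycling (0.171%), 0 of 5 in Ly49 (0.48%) and 0 of 3 in naive T-like cells (0.592%). They were 0 of 5 in NK-like (0.0867%), 0 of 6 in dendritic-like (0.0%) and 0 of 8 in monocyte/macrophage-like cells (0.00772%), and in neutrophil-like cells (0.0567%) no member had enough counts. At an unadjusted p under 0.05 there were 3 members in conventional CD4 T-like cells (Icos, Il10 and Il2ra), among 1132 of 8648 genes. Cycling and Ly49 T-like cells had 2 each (Icos and Il2ra), among 915 of 8179 and 968 of 8950 genes. Dendritic-like cells had 1 (Il2ra, with a value below 0), among 763 of 9772 genes. Monocyte/macrophage-like cells had 3 (Ikzf2, Il10 and Tnfrsf18), among 1094 of 12946 genes, and DESeq2 called Ikzf2 there. DESeq2 called 10 of the 89, and leaving out 1 library gave 10 (DKO 1), 11 (DKO 2), 7 (control 1) and 3 (control 2) member calls, with 2698, 859, 1533 and 239 gene calls. Not all member calls without DKO 1 were higher in DKO cells. In dendritic-like cells Il2ra (-0.75), Tnfrsf4 (-1.05) and Tnfrsf18 (-0.67) were lower. So were Tnfrsf4 (-0.54) and Tnfrsf18 (-0.59) in conventional CD4 T-like cells. The member calls in the 3 other left-out fits were all higher.

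Il2ra in dendritic-like cells had 24.4 and 20.5 CPM in the DKO libraries, against 31.2 and 31.9 CPM in the controls. The log2 change was -0.57 ± 0.20 (adjusted p = 0.60), the 1 value below 0 among 12 Il2ra tests. A dendritic-like cluster of 368 cells, led by Ccl22, Fscn1 and Ccr7, held 295 of the 339 Il2ra UMIs, at 103 CPM. It also held 417 of the 475 Tnfrsf4 UMIs of dendritic-like cells. In the larger cluster, of 816 cells, Il2ra had 4.45 CPM. The part of the mix of these clusters in the change was not tested.

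Icos in CD8 T-like cells had 892 and 695 CPM in the DKO libraries, against 553 and 452 CPM in the controls. The log2 change was 0.58 ± 0.14 (adjusted p = 0.0456), in a population where 1.2% of 8611 genes were called. 3 clusters made up these cells in unequal parts, with 431, 106, 149 and 118 cells of the largest in DKO 1, DKO 2, control 1 and control 2. In the largest Icos had 852 and 625 CPM in the DKO libraries, against 536 and 445 CPM in the controls, in the second 992 and 798 CPM in the DKO libraries, against 583 and 494 CPM in the controls and in the smallest 1078 and 829 CPM in the DKO libraries, against 568 and 326 CPM in the controls. The call held in 5 of 12 alternatives, and these 5 include a crossed block that was chosen after seeing the data. It was lost without DKO 1 (0.34, adjusted p = 0.235), without control 2 (0.46, 0.397), with a replicate block (0.57, 0.345), and under RLE size factors, kept doublets, a 5% mitochondrial limit or finer clusters (adjusted p = 0.0637 to 0.0778). Of 9 myeloid transcripts 2 were called lower in CD8 T-like cells, and their part in the result was not tested.

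In CD8 T-like cells Il2ra and Tnfrsf9 came near the threshold. Il2ra had 157 and 142 CPM in the DKO libraries, against 91.9 and 105 CPM in the controls (log2 change 0.53 ± 0.15, adjusted p = 0.0626). Tnfrsf9 had 563 and 485 CPM in the DKO libraries, against 348 and 370.3 CPM in the controls (log2 change 0.46 ± 0.13, adjusted p = 0.0754). In both the DKO libraries lay above the controls, and the share of all genes that did so was not counted in this population. In regulatory T-like, all T-like and all CD45+ cells, both DKO libraries lay above both controls in 26.8%, 32.3% and 30.4% of genes. In either direction, 43.2%, 49.0% and 46.8% of genes did not overlap. Il10 in CD8 T-like cells had a log2 change of 0.87 ± 0.40 (adjusted p = 0.302).

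Icos in interferon T-like cells, a small subset of 34 to 55 cells a library led by Ifit1 and Ifit3, had 894 and 489 CPM in the DKO libraries, against 407 and 258 CPM in the controls. DKO 1 stood far above the rest. The log2 change was 0.96 ± 0.22 (adjusted p = 0.00296), where 1.93% of 3568 genes were called. DESeq2 gave this gene no adjusted p. Of 8 myeloid transcripts 2 were called lower in these cells, and their part was not tested. The change was 0.45 without DKO 1 (adjusted p = 0.628) and 0.67 without control 2 (adjusted p = 0.612). Ikzf2 in interferon T-like cells had 316 and 414 CPM in the DKO libraries, against 535 and 483 CPM in the controls. The log2 change of -0.58 ± 0.23 did not pass (adjusted p = 0.229), with values from -0.80 to -0.40 when 1 library was left out. This subset was named from interferon genes alone, so the T cell lineages in it were not separated. The part of their mix in the values of Icos and Ikzf2 was not tested. In conventional CD4 T-like cells Icos had 1174 and 969 CPM in the DKO libraries, against 695 and 733 CPM in the controls, a change of 0.53 ± 0.15 that did not pass (adjusted p = 0.0841).

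Il2ra in type 2 cytokine-like cells had 1036 and 1731 CPM in the DKO libraries, against 536 and 510.2 CPM in the controls. DKO 2 was highest. The log2 change was 1.32 ± 0.25 (adjusted p = 0.00465), where 0.535% of 5424 genes were called. It was 0.94 without DKO 2 (adjusted p = 0.261) and 1.13 with doublets kept (0.154), and neither passed. Here too 2 of 8 myeloid transcripts were called lower, and their part was not tested. The subset held 68 and 89 cells in the DKO libraries, against 55 and 40 in the controls.

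Il10 in type 2 cytokine-like cells, with levels given above, had a log2 change of 2.07 ± 0.65 that did not pass (adjusted p = 0.544). With 1 library left out the change was 2.29 without DKO 1, 1.83 without DKO 2, 3.26 without control 1 and 1.45 without control 2. Such a fit has a single library in 1 group and cannot measure the spread there. Its p-values are given elsewhere only where a call was lost. In conventional CD4 T-like cells Il10 had 34.1 and 18.3 CPM in the DKO libraries, against 11.7 and 3.13 CPM in the controls (log2 change 1.73 ± 0.50, adjusted p = 0.178). All 8 Il10 tests had values above 0, from 0.64 to 2.07, in overlapping sets of cells.

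**Figure D4:**
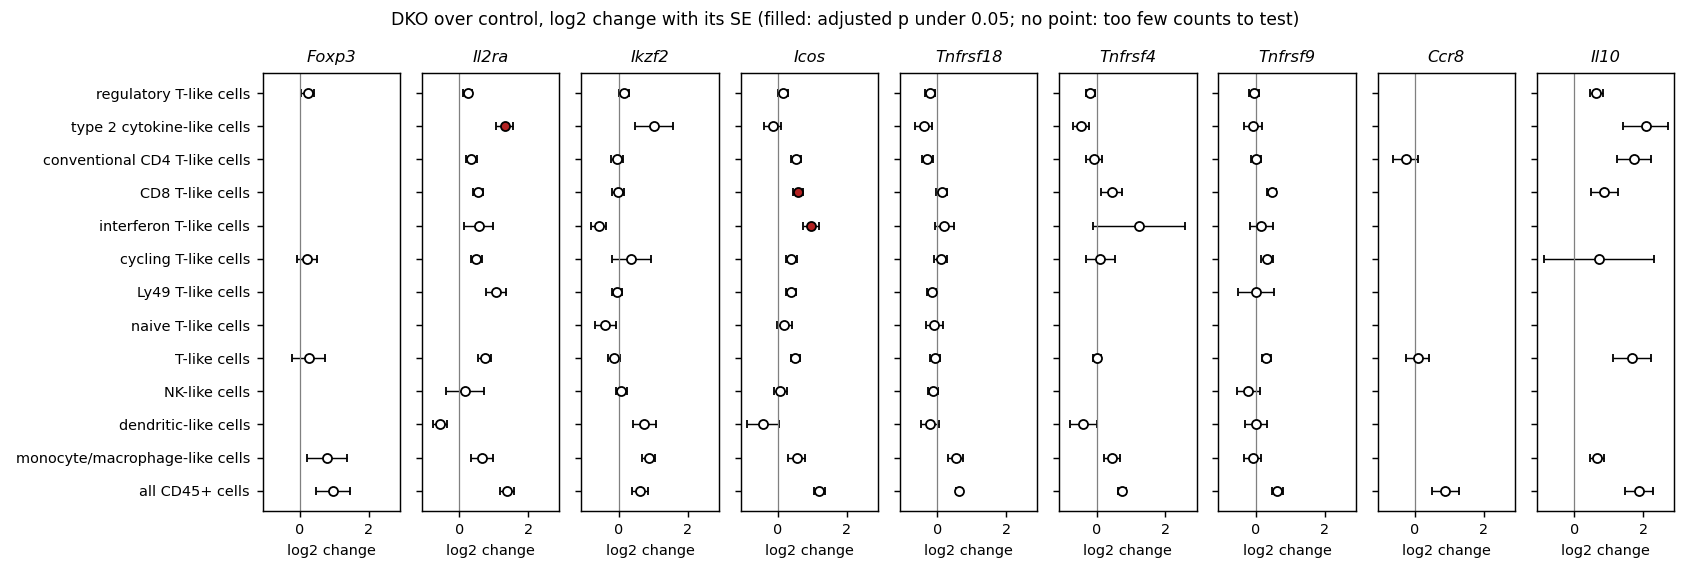
Log2 change of DKO over control (x axis) for each member in 13 cell populations (rows), with 1 SE as whiskers, from 2 libraries a group. Filled points passed the threshold on the adjusted p: Icos in CD8 and interferon T-like cells, and Il2ra in type 2 cytokine-like cells. Neutrophil-like cells had no member with enough counts.

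Myeloid transcripts also differed in some of these comparisons. The list of 9 (Lyz2, C1qa, C1qb, C1qc, Apoe, Csf1r, Cd74, Fcer1g and Tyrobp) summed to 622 and 659.6 CPM in T-like cells of the DKO libraries, against 961 and 1103 CPM in the controls, and 2 of 9 were called lower. These were Lyz2 (-1.90, adjusted p = 0.00974) and Apoe (-0.95, 0.0465), and the Apoe call was lost without control 2 (-0.93, 0.107). In regulatory T-like cells the sums were 704 and 675 CPM in the DKO libraries, against 1004 and 979 CPM in the controls, and 0 of 8 were called, with the smallest p for Lyz2 (-1.42, adjusted p = 0.0804), C1qb (-1.04, 0.279) and Apoe (-0.79, 0.289). In the Foxp3 comparison 1 of 9, Cd74, was called higher in Foxp3-positive cells (0.92, adjusted p = 5.51e-08). Their part in the members' values was not tested. Median UMIs a cell in T-like cells were 5131 and 6226 in the DKO libraries, against 4824 and 4795 in the controls.

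Whether the DKO change differed between regulatory T-like and conventional CD4 T-like cells was tested directly, with the library as a block. By this test 0 of 9 members and 0 of 8476 genes (0.0%) were called by edgeR, with 2 members and 380 genes at an unadjusted p under 0.05, and DESeq2 was not run. With 1 library left out, 16 (DKO 1), 8 (DKO 2), 8 (control 1) and 4 (control 2) genes passed, none of them members. For Icos the difference of the log2 changes was -0.36 ± 0.11 (adjusted p = 0.903) and for Il10 -1.04 ± 0.37 (adjusted p = 0.998). Both were smaller changes in regulatory T-like cells in each left-out fit. Foxp3 gave -0.71 ± 0.53, from few UMIs outside regulatory T-like cells, and the other members lay between -0.10 and 0.22.

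The other regulatory T cell genes gave 6 calls in 234 tests over the 14 populations (2.56%), where 0.296% of all gene tests were called, and 4 of the 6 were Ctla4. In regulatory T-like cells 0 of 22 passed, and the smallest p belonged to Klrg1 (-0.57, adjusted p = 0.405), Batf (-0.40, 0.464) and Ikzf4 (0.35, 0.519). Over all T-like cells 0 of 23 passed, with the smallest p for Ctla4 (0.73, adjusted p = 0.104), Areg (0.78, 0.111) and Ikzf4 (0.49, 0.168). Ctla4 was called higher in DKO cells in 4 of 13 populations: CD8 (0.65, adjusted p = 0.0106), Ly49 (0.69, 0.0129), interferon (0.98, 0.0127) and type 2 cytokine-like cells (1.19, 0.0143). With 1 library left out, the call held in 3 of 4 fits for CD8 (lost without control 2, adjusted p = 0.0599) and Ly49 cells (without control 1, 0.117). It held in 2 of 4 for interferon cells, lost without DKO 2 (0.68, 0.52) or control 2 (0.66, 0.817), and for type 2 cytokine-like cells, lost without DKO 2 (0.84, 0.537) or control 2 (1.04, 0.133). In regulatory T-like cells, where its level was highest, its change was 0.17 ± 0.17 (adjusted p = 0.775). Prdm1 (Blimp-1) was called higher in CD8 T-like cells (0.87), a call lost without DKO 1 (0.68, adjusted p = 0.0643) or control 1 (0.68, 0.0932). Klrg1 was called lower in conventional CD4 T-like cells (-1.54), lost without DKO 2 (-1.11, 0.0815) or control 2 (-1.56, 0.0733).

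Retinoic acid linked genes gave 0 calls of 7 in regulatory T-like cells and 0 of 8 in T-like cells by edgeR. Of all genes tested there, 0.0157% and 0.0353% were called, so 0 calls says little about a list this short. In regulatory T-like cells the smallest p belonged to Rarg (0.48, adjusted p = 0.593), Itgb7 (-0.24, 0.613) and Tgfbr2 (-0.28, 0.685), and in T-like cells to Itgb7 (-0.29, 0.316), Smad3 (-0.33, 0.369) and Rara (0.21, 0.444). Among ligands and partner receptors, Ccl8, which encodes a CCR8 ligand in mice, was called lower in conventional CD4 (-0.82, adjusted p = 0.0244) and naive T-like cells (-1.18, 0.028). Of the named populations its level was highest in monocyte/macrophage-like cells, at 3937 ± 904 CPM, and 4 of 9 myeloid transcripts were called lower in conventional CD4 and 1 of 8 in naive T-like cells. Their part was not tested. The Ccl8 call was lost without control 2 in conventional CD4 cells (-0.56, 0.633), and in naive cells without DKO 2 (-0.91, 0.733) or control 2 (-0.68, 0.808). In regulatory T-like cells the smallest p of the list belonged to Ccl8 (-0.94, adjusted p = 0.236), Ccr4 (0.85, 0.318) and Tgfb1 (0.06, 0.945). Over all T-like cells Ccl8 (-0.77, 0.261) and Tgfb1 (0.30, 0.326) came after Il2.

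Il2, whose product regulatory T cells depend on, had its highest mean level in conventional CD4 T-like cells, with 10.8 and 6.26 CPM in the DKO libraries, against 134 and 56.3 CPM in the controls. These were 24 and 13 UMIs in the DKO libraries, against 194 and 72 UMIs in the controls. The log2 change there was -3.52 ± 0.70 and did not pass (adjusted p = 0.262). With 1 library left out, the log2 changes ran from -4.02 to -2.78, in fits that cannot measure the spread of the group with a single library. Over all T-like cells Il2 had 6.06 and 2.68 CPM in the DKO libraries, against 23.8 and 12.1 CPM in the controls. The log2 change there was -2.10 ± 0.48 (adjusted p = 0.215), and it was -2.87 without DKO 1.

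The genes for the OX40, 4-1BB and ICOS ligands were low, with Tnfsf4 (11.1 ± 3.79 CPM) and Tnfsf9 (40.0 ± 2.93 CPM) highest in dendritic-like cells and Icosl at 36.4 ± 7.37 CPM there and 38.1 ± 7.44 CPM in neutrophil-like cells. Tnfsf18, the GITR ligand gene, had 3 UMIs in dendritic-like and 6 in monocyte/macrophage-like cells. Ccl22 (596 ± 82.4 CPM) and Ccl17 (400.1 ± 152 CPM), which encode ligands of CCR4, peaked in dendritic-like cells, and Ccr4 itself in regulatory T-like cells (61.0 ± 21.8 CPM). Ccl1 was highest in type 2 cytokine-like cells (1048 ± 570.1 CPM).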

How the data were processed

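Raw UMI counts per gene and cell barcode were deposited for 4 libraries, and per the file headers the matrices hold whole-number counts from software version 3.1.0. Cell Ranger, Seurat 3.1.0 and R 3.6.0 are named in the submitters' processing notes, which also list builds mm10 and GRCh38, with no role given. Other deposited columns hold barcodes and gene names. Depth per library is given with the results.

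Barcodes below 200 genes or 500 UMIs, or above 10% mitochondrial UMIs, were dropped, and doublets marked by simulated doublet scores were removed (0.8% per 1000 barcodes). Cells were clustered with scanpy 1.11.5 and leidenalg 0.10.2 (2000 variable genes, 30 components, resolution 1), without the members, and T-like cells were clustered again. Clusters were named from marker lists, with 3 markers needed.

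Counts were summed per library and population and tested with edgeR 4.0.16 in R 4.3.3 (quasi-likelihood, TMM, low-count filter, Benjamini-Hochberg over all genes tested, threshold 0.05). Populations needed 50 cells per library, T subsets 20. DESeq2 1.42.0, RLE factors, no filter, left-out libraries, kept doublets, 5% mitochondrial UMIs, resolution 2, thinning, Foxp3 at 2 UMIs and a replicate block were the alternatives. A crossed block was added after the data were seen. The fits were tested on simulated data. Exact permutation tests used scipy 1.17.1.

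The members and lists were chosen with earlier results of these data known. By rule, all members were to be named, with the called genes of each other list or, where none was called, the 3 with the smallest p, and the 5 genes most like Foxp3. That is followed for regulatory T-like cells, all T-like cells and the Foxp3 comparison. Elsewhere only called genes are named, and called myeloid genes only counted. Il2 was followed further after its values were seen.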

Additional observations from a re-analysis of the deposited data

How the results depend on the processing

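Each library pools 2 tumours and each group has 2 libraries, so single libraries decide many calls. In a fit of DKO over control with 1 library left out, 1 group has a single library and its spread is not measured. A call gained in such a fit is not read as support. Over the 14 populations, 344 genes were called between DKO and control, against 735 by DESeq2, 1668 without a filter on low counts and 239 to 2698 with 1 library left out. Member calls numbered 3, against 10 by DESeq2, 6 at 5% mitochondrial UMIs, 14 without a filter and 3 to 11 with 1 library left out. In T-like cells 4 genes were called, against 1 with RLE factors, 42 by DESeq2, 50 at 5% mitochondrial UMIs, 510 without a filter and 2 to 630 with 1 library left out. Members called there numbered 0, against 1 by DESeq2, 2 without a filter and 0 to 1 with 1 library left out. In regulatory T-like cells 1 gene was called, against 2 with doublets kept, 3 at resolution 2, 6 at 5% mitochondrial UMIs, 28 without a filter and 1 to 64 with 1 library left out, and members called numbered 0, against 1 without a filter and 0 to 1 with 1 library left out. The Foxp3 comparison called 1922 genes, against 1163 by DESeq2 and 697 after thinning, and 5 to 6 members with 1 library left out. The difference between regulatory and conventional CD4 T-like cells gave 0 genes, against 6 without a filter and 4 to 16 with 1 library left out. The cause of these shifts was not tested.

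The replicate block gave 2 genes in T-like cells, 13 in regulatory T-like cells and a log2 ratio of -0.0208 for the regulatory T-like share. The labels do not say whether equal replicate numbers mark a shared batch, and the libraries were not treated as pairs. Deviations of same-numbered libraries correlated at -0.19 in T-like cells and -0.07 in regulatory T-like cells. With 2 libraries a group, these values cannot settle whether the libraries were paired. A crossed block, chosen after seeing the data, gave 3696 calls in all and 1030 in T-like cells.

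With 1 library left out, the log2 ratio of the regulatory T-like share ran from -0.48 to 0.42 and the difference in Foxp3-positive share from -1.47 to 3.55 points. Log2 changes that took both signs in such fits were, in regulatory T-like cells, Foxp3 (-0.0255 to 0.55) and Tnfrsf9 (-0.10 to 0.00285), and in T-like cells Foxp3 (-0.30 to 0.68), Ikzf2 (-0.40 to 0.0939), Tnfrsf18 (-0.20 to 0.0696), Tnfrsf4 (-0.0666 to 0.0892) and Ccr8 (-0.31 to 0.47). Tnfrsf18 in T-like cells was 0.0261 at 5% mitochondrial UMIs. Ccr8 in the Foxp3 comparison ran from -0.29 to 0.31, and was -0.0040 by DESeq2, -0.0097 without a filter, -0.0849 with Foxp3 at 2 UMIs or more and -0.0495 with doublets kept.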
